A study of Homo sapiens and Homo sapiens
Mus musculus and Mus musculus with 9 samples.

Results

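The genes described here are 35 human mitochondrial enzymes and enzyme subunits, out of 41713 genes in the table that compared human RNA between cultures of prostate cancer cells. They are the rows whose gene symbol is on a list of these enzymes, and all 35 had a value in each of the 3 pipelines by which the human reads were separated. In this group, 13 genes encode enzymes of the TCA cycle, 5 bring pyruvate into it, and 17 carry fatty acids through β-oxidation. C4-2B, a bone-tropic derivative of the LNCaP line, is of human prostate cancer origin, whereas MC3T3-E1 cells are precursors of osteoblasts from mouse. C4-2B cells were cultured alone (3 libraries) or mixed with MC3T3-E1 cells at 1 to 30 (3 libraries), all labelled wild type and grown in the same medium with serum. In the paper, C4-2B in co-cultures stands for a line that carries GFP, unless specified. Another 3 libraries, of MC3T3-E1 by itself, do not enter the table used here. Each library was made from total RNA of the whole culture with a stranded mRNA kit and read as pairs of 50 bases, so a co-culture library held reads of both species. The labels give no passage, date or source that would tell separate cultures from repeat preparations.

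The TCA cycle burns acetyl-CoA to CO2 and passes the electrons to the respiratory chain. Pyruvate from glycolysis enters as acetyl-CoA through the pyruvate dehydrogenase complex, or as oxaloacetate through pyruvate carboxylase. Fatty acids enter the matrix through the carnitine shuttle, and each turn of β-oxidation then removes an acetyl-CoA by a dehydrogenase, a hydratase, a second dehydrogenase and a thiolase. Normal prostate epithelium is known for secreting citrate instead of oxidizing it, and prostate cancers for a return to citrate oxidation and a marked use of fatty acids.

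The value analysed for each gene is its mean count, that is, the mean over the libraries of both groups of counts divided by a size factor, as the authors gave it. It is 1 pooled value per gene and pipeline, with no SD and no n, so nothing below compares cells alone with co-cultured cells. From the spacing of the low means, the 6 libraries in the mean had size factors from 0.109 to 5.93 with Xenome, a 54.4-fold range of human depth, and 1 read of the shallowest library added 1.53 to a mean count. If a gene had the same normalized level in all 6 libraries, counting error alone would give its mean an SE between 0.455% (MDH2) and 5.12% (ACAA2), and 84.7% of that variance would come from the 2 shallowest libraries. In bulk RNA, a lower count from fewer cells of a type cannot be told apart from less RNA per cell. KLK3, which encodes prostate-specific antigen, was present at a mean count of 51038, and the 9 of 10 prostate epithelial markers with a row ranged from 4603 to 51038. The human rows of osteoblast markers ranged from 0.103 (ALPL) to 3384 (COL1A1), with a summed mean count of 4002 against 177567 for the prostate markers. Of the transcription factors that define osteoblasts, RUNX2 was at 411 and SP7 at 0.984, and COL1A2 was at 45.0 with Xenome and 264 with XenofilteR.

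Sequence that human and mouse genes have in common matters where reads of 50 bases are assigned to a species. Of the 35 members, 29 had a coding stretch of 31 bases or more that was identical to a mouse transcript, and in 10 the longest such stretch reached the read length of 50 bases. ACAA2, ACADM, ACADVL, DECR1, ECI2 and SUCLG1 had none. No such count over all genes is given here, so these numbers do not set the members apart. By the share of a gene's 31-base sequences that is also in mouse, the members had a median of 0.342%. The 11571 protein-coding genes with a mean of at least 50 had a higher median, 0.681%. The 4 stretches below are shown because they are the longest of all (OGDH) or because they reach a read length in genes whose counts are among the 6 that differ most between the pipelines that remove mouse reads (ETFA, HADHB and SUCLG2). They are written 5′ to 3′ on the coding strand, with the identical bases in capitals and 15 human coding bases on either side in lower case, and the positions are those of the capitals on GRCh38 (GENCODE release 44).
OGDH, 134 identical bases, coding bases 397 to 530 of 3069, chr7:44645501-44666748 plus strand, joined across introns: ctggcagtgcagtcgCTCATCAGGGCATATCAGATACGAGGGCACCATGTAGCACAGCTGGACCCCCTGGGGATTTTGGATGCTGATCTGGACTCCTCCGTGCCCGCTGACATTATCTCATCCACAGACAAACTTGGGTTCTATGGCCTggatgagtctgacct
HADHB, 71 identical bases, coding bases 292 to 362 of 1422, chr2:26273688-26277080 plus strand, joined across introns: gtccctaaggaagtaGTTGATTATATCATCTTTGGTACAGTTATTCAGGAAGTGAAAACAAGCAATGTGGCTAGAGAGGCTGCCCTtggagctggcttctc
SUCLG2, 68 identical bases, coding bases 226 to 293 of 1296, chr3:67529120-67609455 minus strand, joined across introns: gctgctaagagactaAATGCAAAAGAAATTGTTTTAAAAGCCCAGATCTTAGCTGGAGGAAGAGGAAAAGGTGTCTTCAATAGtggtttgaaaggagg
ETFA, 51 identical bases, coding bases 822 to 872 of 999, chr15:76231343-76231393 minus strand, within 1 exon: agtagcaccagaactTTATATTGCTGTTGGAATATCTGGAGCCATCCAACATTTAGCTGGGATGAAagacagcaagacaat
The OGDH stretch is in transcripts of mouse Ogdh. The HADHB stretch is in Hadhb and in Gm13910, the SUCLG2 stretch in Suclg2 and in Gm15163, and the ETFA stretch only in Gm15289. These 3 Gm genes are annotated in mouse as processed pseudogenes, that is, copies of an mRNA inserted in the genome.

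Among the human genes counted, the enzymes of the TCA cycle had high mean counts, here without correction for length. Ranked among the 15678 protein-coding genes with a Xenome mean count of at least 1, the 13 TCA cycle members had a median percentile of 91.7, the 5 pyruvate entry members 88.2 and the 17 fatty acid oxidation members 81.3, where the median of all these genes is the 50th by construction. In all, 15 of 35 members were in the top 10% and 25 in the top 25%. Together the 35 members made up 0.607% of the summed mean counts, of which the TCA cycle held 0.311% and fatty acid oxidation 0.226%. The TCA cycle members spanned a 13.4-fold range of mean counts and the fatty acid oxidation members a 76.5-fold range, or 14.1-fold without ACAA2.

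By count, before any correction for length, the first and last steps of the cycle led. MDH2, the malate dehydrogenase that regenerates oxaloacetate, had a mean count of 25456 ± 116 (counting SE), and CS, the citrate synthase that condenses it with acetyl-CoA, had 24532 ± 114. Their order turned with the pipeline, since CS was above MDH2 with XenofilteR (25644 against 25583) and with Kallisto (29379 against 25239). DLD, the lipoamide dehydrogenase shared by the pyruvate and 2-oxoglutarate dehydrogenase complexes, had 22110, and OGDH, the catalytic subunit of the latter, had 17129. FH, the fumarase, had 8483, IDH2, the NADP-dependent mitochondrial isocitrate dehydrogenase, 8553, and DLST, the succinyltransferase core of the 2-oxoglutarate dehydrogenase complex, 6872. The succinyl-CoA ligase subunits had mean counts of 4611 (SUCLG2), 3637 (SUCLG1) and 2732 (SUCLA2). Of the subunits of the NAD-dependent isocitrate dehydrogenase, IDH3A had 3260, IDH3B 2717 and IDH3G 1895, between the 66.6th and the 79.0th percentile.

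Of the genes that admit pyruvate, DLAT, the acetyltransferase core of pyruvate dehydrogenase, had the highest mean count (11981). PDHA1 and PDHB, the subunits of its decarboxylase, had 6707 and 4278, and PDHX, which anchors DLD to the core, had 5290. PC, pyruvate carboxylase, was at 1419 ± 27.4 and the 60.3rd percentile, below the 4 genes of the dehydrogenase complex in each pipeline.

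In fatty acid oxidation, ACADVL, CPT1A, ECHS1 and ETFA had the highest mean counts. ACADVL, the very long-chain acyl-CoA dehydrogenase, had a mean count of 15393, CPT1A, the outer-membrane carnitine palmitoyltransferase that commits fatty acids to the mitochondrion, 13795, and ECHS1, the short-chain enoyl-CoA hydratase, 12357. ETFA, a subunit of the flavoprotein that takes electrons from the acyl-CoA dehydrogenases, had 10413 and HADHA, the hydratase and dehydrogenase subunit of the trifunctional protein, 8387. The other acyl-CoA dehydrogenases had lower counts, with ACADM (medium-chain) at 3803, ACADL (long-chain) at 3050 and ACADS (short-chain) at 1092. The middle of the list held ECI2 (6431) and ECI1 (2671), which shift double bonds of unsaturated chains, HADHB, the thiolase subunit of the trifunctional protein (4645), ETFB (3622), HADH, the short-chain hydroxyacyl-CoA dehydrogenase (3416), CPT2, the inner-membrane palmitoyltransferase (2639), and ETFDH, which hands the electrons to ubiquinone (2469). DECR1, the dienoyl-CoA reductase needed for polyunsaturated chains, was at 1281.
ACAA2, the thiolase of shorter chains, was the lowest member in each pipeline, with mean counts of 201 (Xenome), 199 (XenofilteR) and 251 (Kallisto). Its counting interval with Xenome was 181 to 221 (95%, on the assumption of a level that is the same in all libraries), far from the next member, ACADS, at 1045 to 1139. It was at the 34.6th percentile, the only one of the 35 below the 50th.

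**Figure D1:**
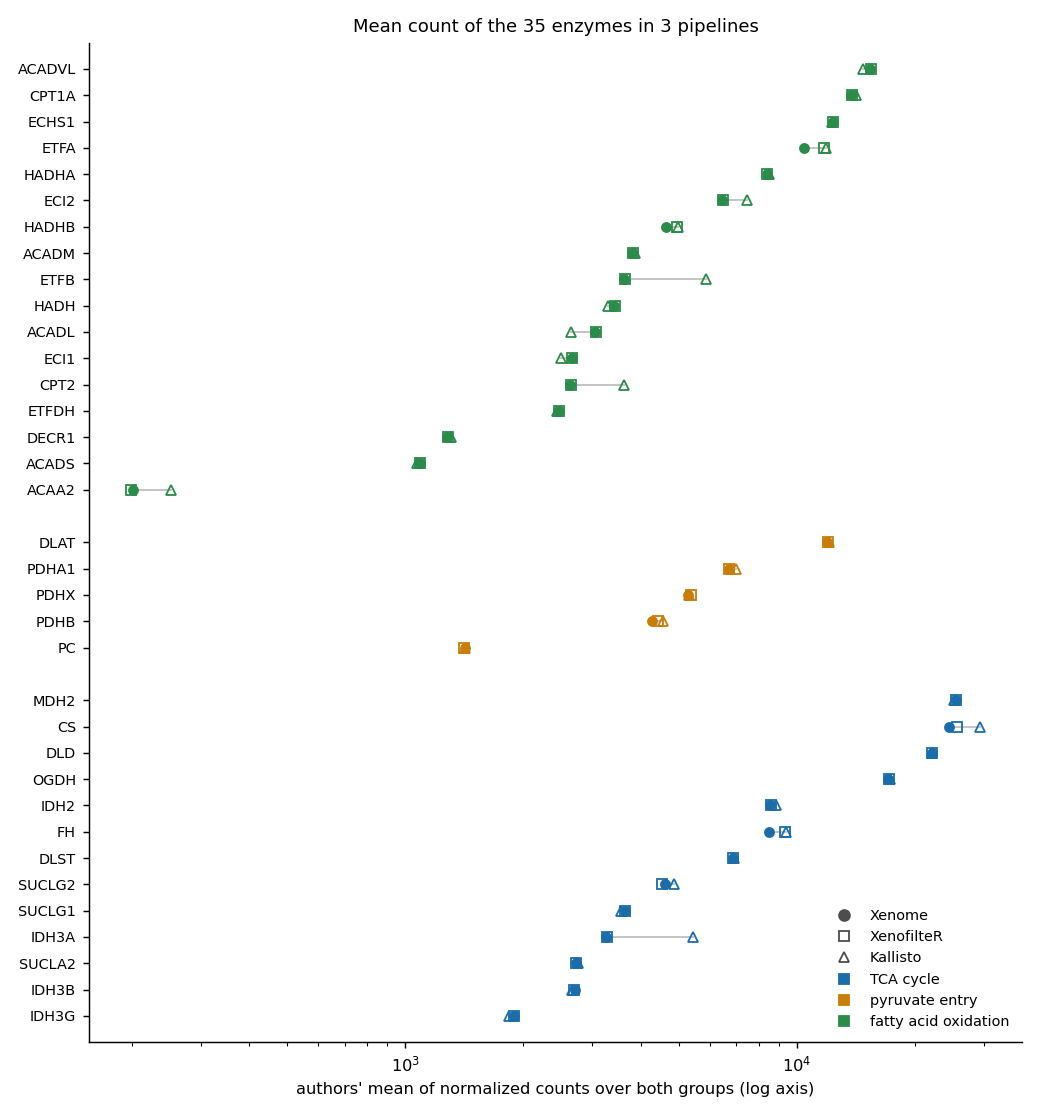
Mean count of each member on a log axis, with a filled circle for Xenome, an open square for XenofilteR and an open triangle for Kallisto, sorted by Xenome mean within the TCA cycle, pyruvate entry and fatty acid oxidation. Each symbol is 1 pooled mean over the libraries of both groups, so there is no error bar; most symbols of a gene coincide, IDH3A, ETFB and CPT2 have a higher Kallisto value, and ACAA2 stands apart at 201.

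Counts of different genes can be compared only per length. Divided by the longest annotated transcript, the median level was 2060 mean counts per kilobase for the TCA cycle and 1020 for fatty acid oxidation, a ratio of 2.02, where all protein-coding genes with a mean of at least 1 had a median of 214. With Kallisto and the same lengths it was 1.25. ETFB, the middle of the 17 fatty acid oxidation genes per kilobase with Xenome, is one of the 2 members that Kallisto raised most. For the MANE Select transcript, the standard transcript of each gene, the ratio was 1.51 with Xenome and 1.53 with Kallisto, and per coding kilobase, that is, per length of the gene's longest annotated coding sequence, it was 1.72 and 1.80. That sequence can be longer than the coding part of the MANE Select transcript, as in ETFA with 1218 against 999 bases. The longest transcript is a poor guide for some members. It was 6677 bases against 1803 for the MANE Select transcript of HADH, 3551 against 872 for ETFB and 5122 against 1791 for FH.
With Xenome, whichever of these 2 transcript lengths was used, the order was led by MDH2 (11731 per kilobase), ECHS1 (9677), CS, ACADVL and DLD, in that order. It ended with PC (276 with the longest transcript) and ACAA2 (68.8). ACAA2 was thus also below the median of all protein-coding genes per kilobase. PC was above it with the longest transcript but below it per coding kilobase (401 against 536).

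**Figure D2:**
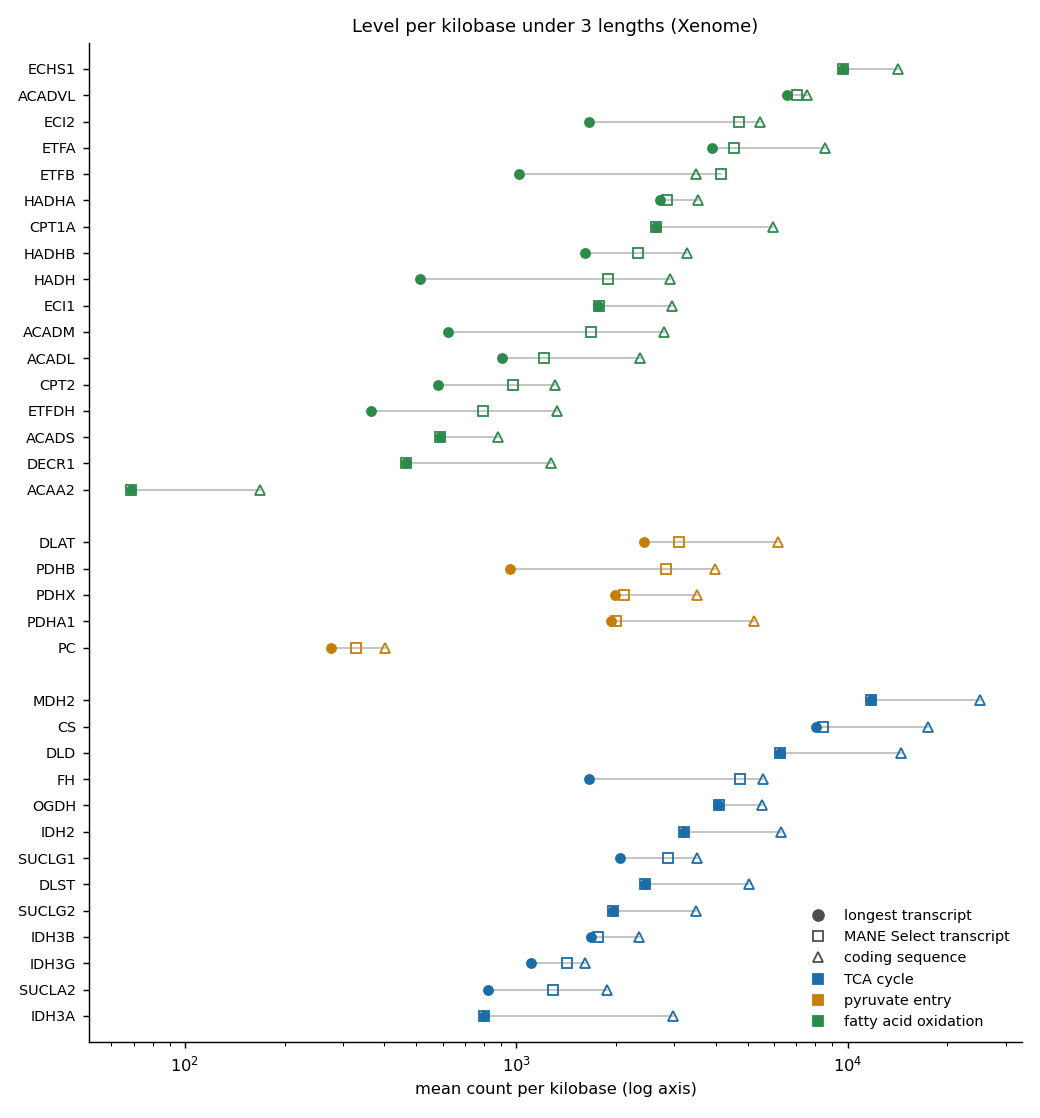
Xenome mean count per kilobase on a log axis, with a filled circle for the longest transcript, an open square for the MANE Select transcript and an open triangle for the coding sequence. MDH2, ECHS1 and CS are at the upper end and ACAA2 at the lower end under each length, while other genes, such as HADH, ETFB, ACADM, PDHB, IDH3A and ETFDH, move with the choice of length.

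Within complexes, the shared subunit DLD had 3.23 times the level of PDHA1 per kilobase of the longest transcript. DLD was at 1.54 times OGDH, and at 2.63 times per coding kilobase. DLST had 0.603 of the level of OGDH, and 0.919 per coding kilobase. Of the alternative β subunits of succinyl-CoA ligase, which make the enzyme specific for GDP (SUCLG2) or ADP (SUCLA2), SUCLG2 had 2.38 times the level of SUCLA2 per kilobase of the longest transcript and 1.52 times per kilobase of the MANE Select transcript. HADHA and HADHB assemble in equal numbers into the trifunctional protein, and are neighbours read in opposite directions from RefSeq starts 307 bases apart on chromosome 2. In GENCODE release 44 the gene spans overlap, with HADHB from 26243170 and HADHA up to 26244672, but their exons do not. The level of HADHA was 1.69 times that of HADHB per kilobase of the longest transcript and 1.081 times per coding kilobase. ETFA was 10.7 times ETFDH, and 5.73 times with MANE Select lengths.
Other ratios turned with the length or pipeline and gave no order. SUCLG1, the α subunit common to both succinyl-CoA ligases, was at 1.05 times SUCLG2 with Xenome and 0.976 of it with Kallisto. IDH3G was 1.39 times IDH3A per kilobase with Xenome and 0.806 of it with Kallisto, and 0.542 of it per coding kilobase. ECI2 was at 0.941 of ECI1 with the longest transcript (1.17 times with Kallisto) and 2.65 times ECI1 with the MANE Select transcript. ETFA was 3.82 times ETFB per kilobase of the longest transcript with Xenome and 0.768 of it per kilobase of the MANE Select transcript with Kallisto. PDHB was at 0.495 of PDHA1 with the longest transcript and 1.42 times PDHA1 with the MANE Select transcript. ACADL was above ACADM (1.46) with the longest transcript alone.

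**Figure D3:**
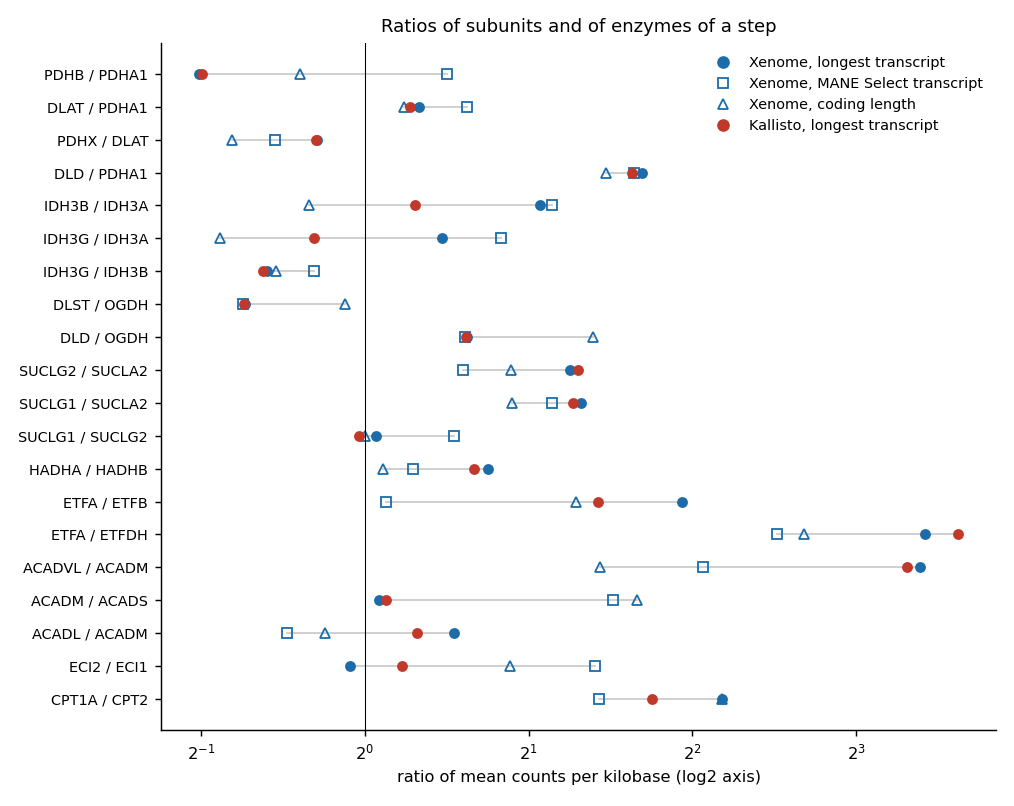
Ratios of mean counts per kilobase between subunits or enzymes of a step on a log2 axis, with blue symbols for Xenome (filled circle, longest transcript; open square, MANE Select transcript; open triangle, coding length) and a red circle for Kallisto with the longest transcript. The line at 1 marks equal levels; DLD, SUCLG2 against SUCLA2, ETFA against ETFDH and CPT1A against CPT2 stay on one side of it, while IDH3G against IDH3A and ECI2 against ECI1 cross it.

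The paralogs of several members were lower. Per kilobase of the longest transcript, OGDH had 98.8 times the level of OGDHL, its brain form, and CPT1A had 53.8 times that of the muscle form CPT1B and 49.9 times that of the neural form CPT1C. Per coding kilobase the ratios of CPT1A to these forms were 106 and 92.1. With Kallisto the ratio of CPT1A to CPT1B was 15.1, since Kallisto gave CPT1B 475 mean counts and Xenome 130. CPT1B shares 66.4% of its exon bases with other genes. The order was opposite for the isocitrate dehydrogenases and the thiolases, where IDH2 had 0.460 of the level of cytosolic IDH1, and ACAA2 0.116 of that of peroxisomal ACAA1, or 0.0417 with MANE Select lengths. HADHB, the long-chain thiolase of the mitochondrion, was at 23.4 times ACAA2.

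The members' counts were next compared between the pipelines. Kallisto assigned reads to transcripts of the joined human and mouse transcriptomes, whereas Xenome sorted reads by species before they were aligned and counted per gene. After scaling by the median ratio of 11580 protein-coding genes with a mean of at least 50 in both, IDH3A (1.64) and ETFB (1.59) were past 1.5-fold, both higher with Kallisto. These were 2 of 35 members (5.71%), against 10.1% of all genes compared, so the members did not stand out. The median ratio of the members was 0.993, and the others ranged from 0.851 (ACADL) to 1.35 (CPT2). Scaled by summed means instead, neither IDH3A nor ETFB passed.
IDH3A, the catalytic α subunit of the NAD-dependent enzyme at chr15:78131498-78171945 (plus strand), had mean counts of 3260 with Xenome, 3272 with XenofilteR and 5443 with Kallisto. Of its annotated exon bases, 38.2% lie under exons of ACSBG1 on the opposite strand, the largest share of any member. ECI2 at 29.8% overlap, of which TEX56P on the opposite strand took 27.1%, had a ratio of 1.14. Among all genes with 20 to 50% of exon bases overlapped, the median ratio was 1.28 (1054 genes), against 0.986 for the 5441 genes with none.
ETFB, the β subunit of the electron transfer flavoprotein at chr19:51345169-51366418 (minus strand), had 3622, 3632 and 5876 mean counts in the same order. It shares 5.19% of its exon bases with an unnamed protein-coding gene on its own strand, ENSG00000269403. ACAA2 (1.23) shares 7.83% with such a gene on its own strand, and CS (1.17) shares 3.44%. The other members with same-strand overlap were ACADM (1.14% on its own strand, ratio 0.993) and ETFDH (0.918%, 0.968). Genes with 5 to 20% of same-strand overlap had a median ratio of 1.11 (707 genes), and those with some overlap up to 5% had 1.007 (843 genes). CPT2, with a lncRNA over 11.4% of its exon bases on the opposite strand, had 2639 with Xenome and 3625 with Kallisto. Other overlapped members had ratios near 1, such as PDHA1 (19.3% of exon bases, 1.03), DLAT (13.3%, 0.989), IDH3G (9.89%, 0.952) and ACADM (11.0%, 0.993). The 12 members with 5 to 20% overlap had a median ratio of 0.991, and the 15 with none 0.993. Whether overlapping annotation accounts for these members' ratios was not tested.

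**Figure D4:**
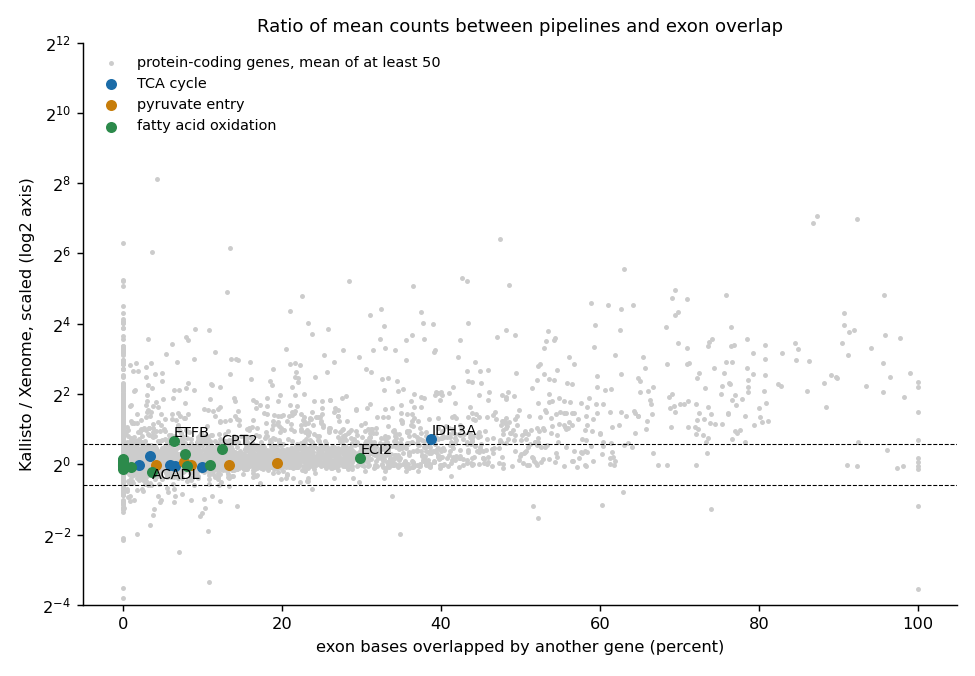
Ratio of Kallisto to Xenome mean counts, scaled to a median of 1 (log2 axis), against the percent of a gene's exon bases that another gene overlaps; grey dots are protein-coding genes with a mean of at least 50, coloured dots are members, and dashed lines mark 1.5-fold. IDH3A (38.8% overlap) and ETFB (6.39%) are above the upper line, the other members between the lines.

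Between the pipelines that both remove mouse reads before counting, the members differed little. None was past 1.5-fold, as against 0.146% of 11647 genes, and 1 member (ETFA) was past 1.1-fold, as against 2.23%. The members' median ratio of XenofilteR to Xenome was 1.00. Those farthest from 1 were ETFA (1.13), FH (1.098), HADHB (1.07), CS (1.05) and PDHB (1.03) above it, and SUCLG2 (0.982) below.
ETFA had mean counts of 10413 with Xenome, 11730 with XenofilteR and 11847 with Kallisto. FH had 8483, 9321 and 9367, and HADHB 4645, 4949 and 4985. For these 3 genes Kallisto was thus close to XenofilteR (scaled ratios of 0.996, 0.991 and 0.993), and Xenome gave the lowest count.
Identity to mouse and the ratio are given side by side. OGDH, with the 134-base stretch printed above, had a ratio of 1.00, and IDH2, with 68 bases, 1.00. Counting every stretch of at least 31 identical bases, ETFA had the largest share of its coding sequence in common with mouse (31.1%), followed by IDH2 (20.8%). The 10 members with an identical stretch of at least a read length had a median ratio of 1.00 (0.982 to 1.13), and the other 25 had 1.00 (0.9901 to 1.098). Stretches were sought only in the coding part of the MANE Select transcript. Because reads came in pairs, a stretch of a read length does not show that a whole pair matches both species. Whether identity to mouse accounts for the ratios was not tested. The longest stretch was in a mouse processed pseudogene in 4 members, namely ETFA, HADHB, PDHB and SUCLG2. In PDHB it was 32 bases, under the read length. Only the longest coding stretch of each member was looked up, and no such count over all genes is given here. FH and CS have no match to a mouse pseudogene in their longest stretch, and the part of mouse pseudogenes was not tested.

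**Figure D5:**
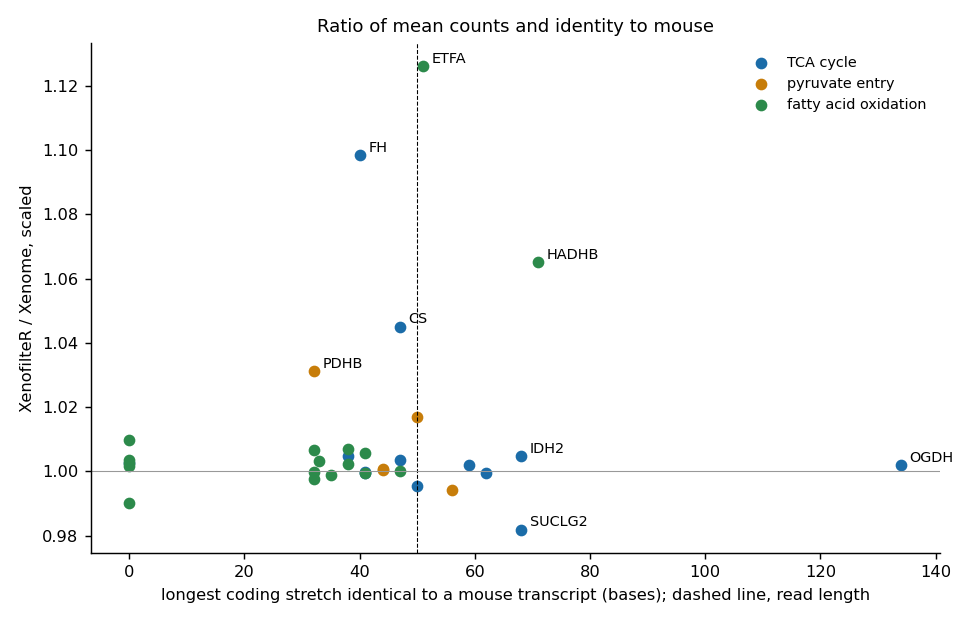
Ratio of XenofilteR to Xenome mean counts, scaled to a median of 1, against the longest coding stretch of each member that is identical to a mouse transcript, in bases; the dashed line is the read length of 50 bases. ETFA (51 bases, 1.13) and FH (40 bases, 1.098) are highest, and OGDH, with 134 bases, is at 1.00.

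Of 58 further genes (regulators, transporters, paralogs, peroxisomal enzymes and transcription factors), 32 had a Xenome mean count of at least 1000 and 6 were under 50, with a median of the 55.95th percentile among those ranked. Of the 51 that could be compared, 4 were more than 1.5-fold higher with Kallisto and 1 lower, 9.80% in all and near the 10.1% of all genes. These were AMACR, a peroxisomal racemase that is a prostate cancer marker (5.53), CPT1B (3.57), ACOT2 (1.74), PDPR (1.53) and ECHDC2 (0.619). The 6 genes under 50 were not compared. Of these, ACAD11 had 8.66 with Xenome and 281 with Kallisto, ECHDC1 15.2 and 52.2, and ACSL6 7.92 and 25.2. ACSL5 (41.2 and 41.2) and PDK4 (7.75 and 7.81) differed little, and ME3 was lower with Kallisto (0.302 and 0.166). AMACR had a mean count of 759 with Xenome and 4283 with Kallisto, and 72.3% of its exon bases are shared with other genes, whereas ACOT2 and ECHDC2 have no such overlap. PDK4, an inhibitory kinase of pyruvate dehydrogenase, had a mean count of 7.75, PDK2 357, PDK1 2881 and PDK3 3620.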

How the data were processed

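Stranded mRNA libraries of C4-2B cells alone (3) and of the mixed co-culture (3) were analysed. To separate the species, the authors sorted reads with Xenome before HISAT2 alignment to GRCh38, filtered alignments to GRCh38 and GRCm38 with XenofilteR (both counted by featureCounts), or ran Kallisto on the combined transcriptomes. Tool versions are not given in the sources used here. The authors deposited, per pipeline, the mean over libraries of counts divided by size factors, along with the log2 fold change, standard error, statistic, p-value and adjusted p-value of their DESeq2 comparison of the groups. These comparison columns were not used, so only means were analysed and no test was run. Of 41734 rows, 21 repeated a gene and were dropped.

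The members, groups and lists were chosen with earlier results of these data known. All 35 members were named. Ranks used protein-coding genes with a mean of at least 1. Ratios between pipelines were scaled by the median ratio of protein-coding genes with a mean of at least 50 in both, with 1.5-fold as threshold. Size factors were solved from the low means, of which 100% of 15274 below 3 (Xenome) were whole reads within 1e-07. The solver and the ratio rule were tested on simulated data. Solved libraries were not assigned to groups. Lengths, exon overlap and 31-base sequences came from GENCODE releases 44 and M21. The table's coordinates of 24 members equal those of release 44. Intervals cover counting error only. Software was numpy 2.4.6, pandas 2.3.3, numba 0.67.0 and matplotlib 3.10.9 under python 3.11.15. Alternatives were the other pipelines, other filters, lengths, scales and folds. Values of some genes of the marker and pathway lists are not reported here.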

Additional observations from a re-analysis of the deposited data

Results flagged for a closer look

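Rows of processed pseudogenes of the members, which enter none of the comparisons, held counts with Xenome above a floor of 3 reads in the shallowest library (a mean count of 4.59). There were 6 such rows, and Kallisto gave no value for them. SUCLG2P2 (chr12:94548241-94549536) had a mean count of 52.2 with Xenome and 105 with XenofilteR, a gain of 52.6, while SUCLG2 itself fell by 82.3 from 4611 to 4529. HADHAP1 had 33.3 with Xenome and 27.2 with XenofilteR, and DLSTP1, which lies within ACADM on the opposite strand, had 31.9 and 28.1. HADHAP2 was at 19.2, FHP1 at 7.77 and SUCLA2P1 at 6.34 with Xenome. Each was at most 1.13% of its parent gene's mean count with Xenome and 2.31% with XenofilteR, both for SUCLG2P2. Whether these reads came from the pseudogenes, from the parent genes or from mouse transcripts was not tested.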

How the results depend on the processing

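With 1 pooled mean per gene there is no replicate spread, so a value was taken as changed where it moved by over 1.5 times. The median percentiles, on a scale capped at 100 where this limit says little, ranged over the alternatives from 88.8 to 92.7 (TCA cycle) and from 74.8 to 83.5 (fatty acid oxidation). The ratio of TCA cycle to fatty acid oxidation levels was 1.25 with Kallisto and the longest transcript, and 1.51 to 2.19 under the other alternatives, of which the MANE Select length, Kallisto with another length and the pyruvate entry genes counted with the TCA cycle were chosen after seeing the data. The 2 members past 1.5-fold between Kallisto and Xenome became 0 at 2-fold and 0 when scaled by summed means. Between XenofilteR and Xenome, 0 became 1 at 1.1-fold. With 1 choice changed at a time, ratios that crossed 1 were IDH3B/IDH3A (0.788 per coding length, 0.833 without length), IDH3G/IDH3A (0.806 with Kallisto, 0.542 per coding length, 0.581 without length), PDHB/PDHA1 (1.42 with MANE Select lengths), ACADL/ACADM (0.847 per coding length, 0.802 without length, 0.721 with MANE Select lengths), ECI2/ECI1 (1.85, 2.41 and 2.65 in the same order, 1.17 with Kallisto) and SUCLG1/SUCLG2 (0.976 with Kallisto, 0.789 without length). With Kallisto and MANE Select lengths together, a combination chosen after seeing the data, those that crossed 1 were PDHB/PDHA1 (1.44), ACADL/ACADM (0.618), ECI2/ECI1 (3.30), ETFA/ETFB (0.768) and DECR1/DECR2 (0.990). The length itself makes these changes, except where Kallisto was used, for which the cause was not tested. No paired analysis was possible because each gene has 1 mean over all libraries, and fits that leave out a replicate were not run for the same reason. Depth limits ACAA2 most, and differences between the groups were not analysed here.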
